A study of Mus musculus with 10 samples.

Results

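The genes described here encode the proteins of the mitochondrial ribosome, measured in cardiac myocytes of control mice, of mice with a knockout of CTCF and of mice after transverse aortic constriction (TAC). They were chosen by name as the protein-coding genes whose symbol begins with Mrpl (large subunit) or Mrps (small subunit). This gave 78 genes among 45882 gene IDs in the files, 49 of the large and 29 of the small subunit. All 78 had a mean level of at least 5 FPKM (fragments scaled by transcript length and by the number of mapped fragments) and thus passed the filter for testing, a mean of 1 FPKM. The 5 pseudogenes with such symbols were not counted as members.

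RNA came from isolated adult cardiac myocytes of the left ventricle of C57BL/6 mice, with 3 control, 4 CTCF knockout and 3 TAC libraries, each from a mouse with its own number. In TAC, a surgeon constricts the aortic arch so that the heart pumps against raised pressure, and the series calls these hearts diseased. CTCF, a DNA-binding zinc finger protein, anchors chromatin loops together with cohesin. The labels name no Cre driver, no deleted exons, no age in weeks and no time after surgery, and they give no genotype for the TAC mice. Sex read from Xist and Y-linked genes gave 6 females and 4 males. The males were control 2, knockout 4, TAC 1 and TAC 3, so sex was not balanced over the groups.

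The mitochondrial ribosome translates the messages of the mitochondrial genome, which code for core subunits of the respiratory chain and of ATP synthase. Its RNAs are transcribed inside the organelle, whereas all its proteins are encoded in the nucleus and imported. The heart depends on this ribosome for oxidative energy supply, and inherited defects in several of its proteins, MRPL3, MRPL44 and MRPS22 among them, cause cardiomyopathy in people. Symbols follow history and not always structure: Mrps18a and Mrps30 are known to sit in the large subunit, and Mrps36 is now known as a part of the oxoglutarate dehydrogenase complex. They are counted here under their symbols.

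Ctcf itself was at 8.81, 8.34 and 6.80 FPKM in the control libraries, at 2.90, 4.01, 2.60 and 4.42 FPKM in the knockout and at 7.32, 5.70 and 5.22 FPKM after TAC. The knockout libraries did not overlap the control libraries. The log2 fold change of knockout against control was -1.02 (SE 0.16, n = 4 and 3, adjusted p = 0.00136, limma). Myocyte markers dominated every library: 7 of them summed to between 24413 and 26634 FPKM in control, 17192 and 22510 FPKM in the knockout and 17916 and 23313 FPKM after TAC. Lists of 4 markers each stood for other cells. Fibroblast markers summed to between 47.6 and 90.1 FPKM in control, 59.9 and 102 FPKM in the knockout and 81.9 and 87.0 FPKM after TAC, and endothelial markers to between 31.6 and 47.0, 32.7 and 50.0, and 45.2 and 62.3 FPKM. Leukocyte markers summed to between 7.80 and 11.3 FPKM in control, 10.7 and 16.8 FPKM in the knockout and 12.8 and 16.0 FPKM after TAC, where all libraries lay above control. Smooth muscle markers summed to 66.0 FPKM or less. No marker was listed at 0 in any library. In bulk RNA, fewer cells of a type and less RNA per cell cannot be told apart. In the knockout, 4 of the 7 myocyte markers fell and 1 rose, as did the fibroblast marker Col1a1 and the macrophage marker Adgre1. After TAC, 2 myocyte markers fell and 1 rose, and Col1a1 rose. The part of these in the values below was not tested. The files hold no read counts, and the median coverage that 1 FPKM stood for, which scales with mapped depth, ran from 3.90 to 6.09 over the libraries.

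Within the large subunit, mean levels over the 10 libraries ran from 6.39 FPKM for Mrpl57 to 152 FPKM for Mrpl42, with a median of 29.8 FPKM. Mrpl33 and Mrpl30 followed Mrpl42, with means of 123 and 113 FPKM. Mrpl42 was at 133, 201 and 217 FPKM in control, 161, 124, 161 and 120 FPKM in the knockout and 112, 132 and 156 FPKM after TAC. The groups of this most abundant member overlapped. Within libraries, Mrpl42 was above Mrpl30 in 10 of 10 and above Mrpl33 in 9 of 10, and Mrpl33 was above Mrpl30 in 7 of 10. At the other end stood Mrpl57, Mrpl35 (6.97 FPKM) and Mrpl11 (8.35 FPKM). Mrpl35 was at 6.73, 8.30 and 6.62 FPKM in control, 6.05, 5.79, 6.37 and 5.62 FPKM in the knockout and 8.18, 7.75 and 8.29 FPKM after TAC. All its knockout libraries lay below all its control libraries, but the difference was not called (log2 fold change -0.24, SE 0.10, adjusted p = 0.112, limma).

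The small subunit spanned 8.56 FPKM for Mrps2 to 139 FPKM for Mrps21, with a median of 26.2 FPKM. Mrps21 was at 122, 153 and 166 FPKM in control, 147, 142, 150 and 120 FPKM in the knockout and 125, 111 and 153 FPKM after TAC, and its groups overlapped. Mrps23 (77.7 FPKM) and Mrps36 (57.1 FPKM) came next. After Mrps2, the lowest were Mrps10 (9.30 FPKM) and, with equal means, Mrps11 and Mrps6 (12.3 FPKM). Mrps10 was above Mrps2 in 7 of 10 libraries. FPKM is divided by transcript length, but the part of transcript length in this order of genes was not tested. It says nothing of protein amounts.

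**Figure D1:**
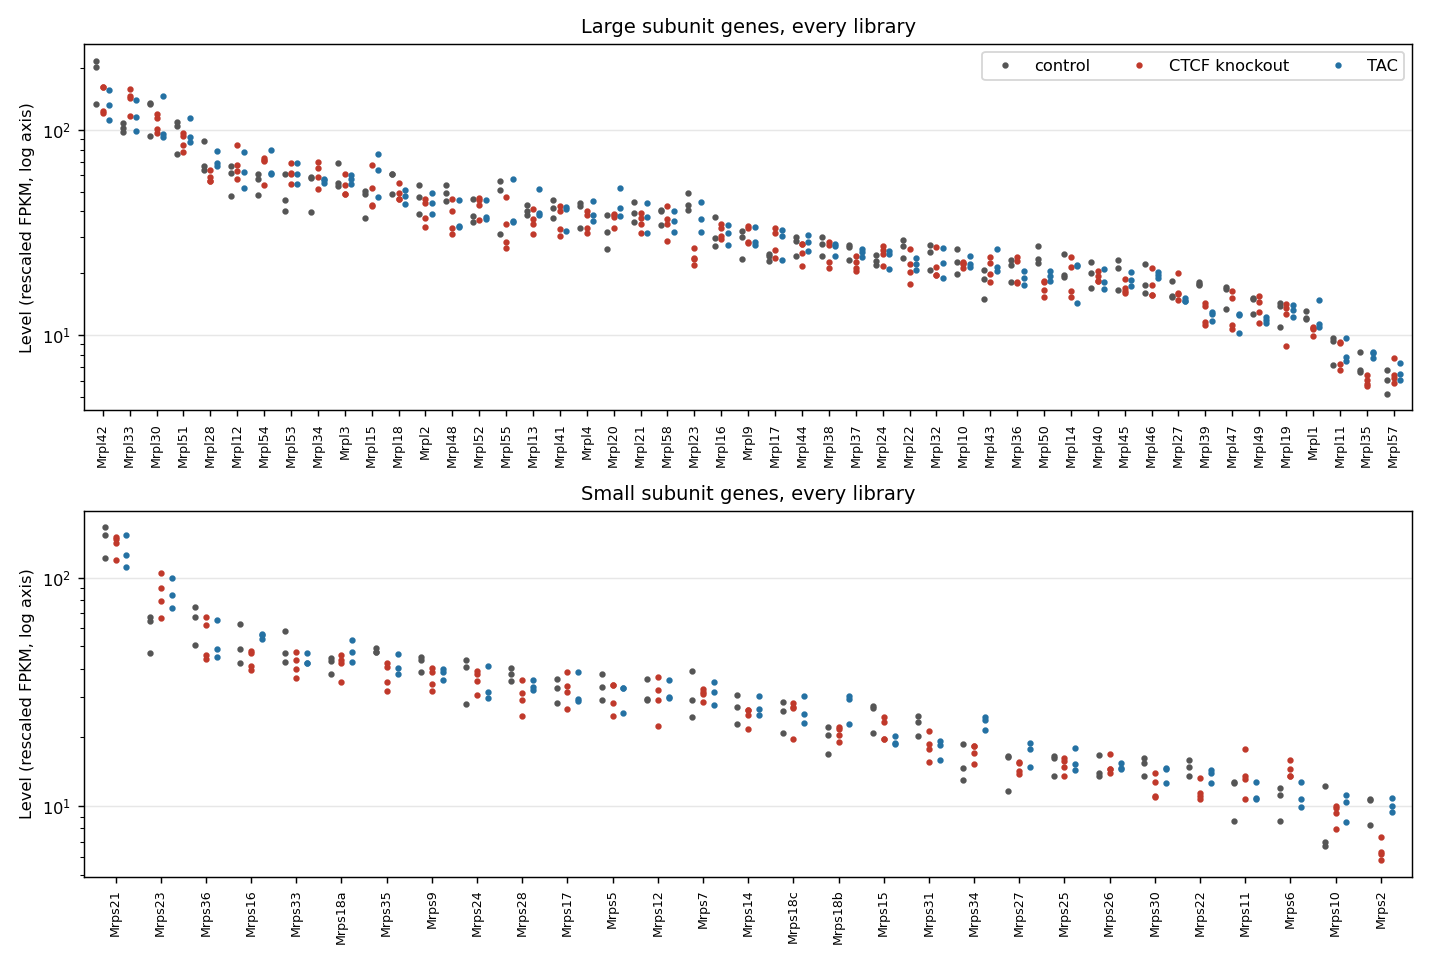
Levels of the 49 large subunit genes (top) and 29 small subunit genes (bottom) in every library, in rescaled FPKM on a log axis, sorted by the mean over all libraries. Points are single libraries of control (grey), CTCF knockout (red) and TAC (blue). Means fall from over 100 FPKM for Mrpl42 and Mrps21 to under 10 FPKM for Mrpl57 and Mrps2, and groups overlap for most genes.

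Loss of CTCF was compared with control first. Most mitochondrial ribosomal genes differed little: 8 of 78 were called at an adjusted p under 0.05 (limma on log2(FPKM + 1), Benjamini-Hochberg over 11358 genes), or 10.3%, beside 20.8% of all genes tested. The genes that fell were Mrpl23, Mrpl50 and Mrpl39 of the large subunit and Mrps2, Mrps35 and Mrps22 of the small subunit. Mrpl33 and Mrps6 rose. Among all genes tested, 10.2% fell and 10.6% rose. The median log2 fold change was -0.11 for the large subunit and -0.07 for the small subunit, beside -0.01 for all genes, and 52 of 78 members lay below 0. Of the members, 74.4% stayed within 0.25 of 0 on the log2 scale, as did 58.7% of all genes. Knockout libraries lay entirely below control for 8 members and entirely above for 2, beside 16.0% and 14.8% of all genes. At an unadjusted p under 0.05 (limma) stood 18 members, or 23.1%, beside 33.7% of all genes.

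The count depends on single libraries and on library scaling. It fell from 8 to 5 without control 2, control 3, knockout 1 or TAC 2, and to 4 without knockout 2. The share of all genes called fell as well, from 20.8% to 15.4%, 16.4%, 17%, 20% and 14.9% in these fits. A fit with the library level of short transcripts as a term was chosen after seeing the data. It called 24 of 78 members as lower and 3 as higher. Of all 11358 genes, it called 1580 as lower and 1500 as higher, 27.1% together.

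Mrpl23 had the largest difference of all members. It encodes a homolog of the bacterial ribosomal protein that lines the exit of the polypeptide tunnel, and lies at chr7:142532799-142540747 (mm10, plus strand). Its level was 43.2, 40.5 and 49.4 FPKM in control, 26.4, 22.0, 23.8 and 23.5 FPKM in the knockout and 31.6, 36.8 and 44.4 FPKM after TAC. Every knockout library was below every control and TAC library. The log2 fold change against control was -0.86 (SE 0.12, 95% interval -1.13 to -0.59, adjusted p = 0.000717, limma), and it was called in all 24 alternative fits. Both main transcripts were lower in the knockout: the first had a mean of 25.1 ± 3.28 FPKM (SD, n = 3) in control and 13.0 ± 1.10 FPKM (SD, n = 4) in the knockout. The second was at 18.6 ± 3.15 and 10.6 ± 1.16 FPKM.

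The value of Mrpl23 may hold reads of a copy, or the reverse. Its main transcript (692 nt) shares an unbroken stretch of 540 nt with the pseudogene Mrpl23-ps1. That pseudogene was listed at 7.71, 9.36 and 11.5 FPKM in control, 5.40, 4.69, 4.48 and 5.28 FPKM in the knockout and 6.12, 8.66 and 8.76 FPKM after TAC. How reads were divided between the copies is not given in the sources used here. Only protein-coding genes were looked up around Mrpl23. Of those tested with a start within 200 kb, Lsp1 averaged 14.7 FPKM in control and 7.31 FPKM in the knockout. This change was called (log2 fold change -0.85, adjusted p = 0.0125, limma). Lsp1 fell as well after TAC, to a mean of 7.39 FPKM (log2 fold change -0.84, adjusted p = 0.0233, limma), where Mrpl23 was not called. Ctsd (log2 fold change 0.13) and Igf2 (0.20) were not called. Called neighbours were not particular to Mrpl23. Within 200 kb of Mrpl39, Jam2 fell in the knockout (log2 fold change -0.54, adjusted p = 0.00402, limma) and after TAC (-0.49, adjusted p = 0.0115, limma). Atp5j fell in the knockout (-0.35, adjusted p = 0.0292, limma), and Gabpa was not called (-0.26). Of all genes tested, 20.8% were called in the knockout and 15.5% after TAC.

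Mrps2 is the homolog of a bacterial small subunit protein and the least abundant small subunit gene here (chr2:28468066-28471178, plus strand). It was at 8.23, 10.7 and 10.6 FPKM in control, 5.79, 6.20, 7.36 and 6.32 FPKM in the knockout and between 9.43 and 10.9 FPKM after TAC. The knockout libraries lay below all others. Its log2 fold change was -0.54 (SE 0.11, adjusted p = 0.00659, limma), called in all 24 alternatives. One transcript held 96.6% of its level.

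Mrpl50 and Mrpl39 belong to the large subunit proteins that have no bacterial counterpart. Mrpl50 (chr4:49512596-49521093, minus strand) was at 22.4, 27.1 and 23.5 FPKM in control, 18.1, 16.5, 18.4 and 15.4 FPKM in the knockout and 18.4, 19.3 and 20.4 FPKM after TAC. Mrpl39 (chr16:84717576-84735742, minus strand) was at 17.7, 17.5 and 18.2 FPKM in control, 13.9, 11.2, 14.3 and 11.6 FPKM in the knockout and 12.7, 12.9 and 11.7 FPKM after TAC. For both genes, all knockout and all TAC libraries lay below all control libraries. The log2 fold change in the knockout was -0.48 for Mrpl50 (SE 0.10, adjusted p = 0.00596, limma) and -0.45 for Mrpl39 (SE 0.10, adjusted p = 0.00943). Without rescaling of the libraries, neither was called (adjusted p = 0.0741 and 0.0928, limma).

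Mrps35 and Mrps22 encode small subunit proteins without a bacterial counterpart. Mrps35 (chr6:147042764-147070903, plus strand) was at 47.5, 49.3 and 47.5 FPKM in control, 40.8, 34.9, 42.2 and 32.0 FPKM in the knockout and 37.8, 40.1 and 46.4 FPKM after TAC. Its log2 fold change in the knockout was -0.36 (SE 0.11, adjusted p = 0.0452, limma). Mrps22 (chr9:98588730-98601660, minus strand) was at 13.5, 16.0 and 14.9 FPKM in control, 11.4, 10.7, 13.3 and 11.1 FPKM in the knockout and 12.6, 14.4 and 13.9 FPKM after TAC. Its log2 fold change was -0.32 (SE 0.10, adjusted p = 0.0437, limma). Neither gene's knockout libraries reached the control range, and both calls rest on the full set of libraries. The call of Mrps35 was kept only without knockout 3, TAC 1 or TAC 3, and that of Mrps22 only without control 1, knockout 3 or TAC 1 (adjusted p up to 0.118 and 0.146 without 1 library).

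Mrpl33 and Mrps6, both homologs of bacterial ribosomal proteins, were the members that rose. Mrpl33 was at 97.7, 108 and 102 FPKM in control, 146, 142, 158 and 117 FPKM in the knockout and 99.0, 115 and 140 FPKM after TAC. Its log2 fold change in the knockout was 0.44 (SE 0.14, adjusted p = 0.0374, limma). Mrps6 was at 8.60, 11.2 and 12 FPKM in control, 13.6, 13.5, 16.0 and 14.5 FPKM in the knockout and 10.8, 12.8 and 9.87 FPKM after TAC, a log2 fold change of 0.41 (SE 0.13, adjusted p = 0.0383, limma). All knockout libraries of both genes lay above control. With 1 library left out, the call of Mrpl33 was kept only without knockout 4, TAC 1 or TAC 3, and that of Mrps6 only without control 3 or any of the TAC libraries (adjusted p up to 0.0965 and 0.134). The main Mrps6 transcript shares 159 nt with Slc5a3 and 306 nt with the gene model Gm49711, and that of Mrpl33 shares 179 nt with Gm43809.

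Mrps23 had the highest fold change of the small subunit and missed the threshold. It was at 46.8, 67.1 and 64.3 FPKM in control, 79.3, 90.3, 105 and 66.7 FPKM in the knockout and 73.4, 83.8 and 100 FPKM after TAC. The log2 fold change was 0.51 in the knockout (SE 0.17, adjusted p = 0.0586, limma) and 0.53 after TAC (SE 0.19, adjusted p = 0.0779). The knockout library at 66.7 FPKM lay within the control range. Also uncalled among the extremes of the knockout were Mrpl53 (0.34), Mrpl54 (0.27), Mrps11 (0.26) and Mrps28 (-0.33). Their standard errors ran from 0.12 to 0.17. The main transcript of Mrpl53 (695 nt) shares an unbroken stretch of 695 nt with the gene model Gm42688.

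**Figure D2:**
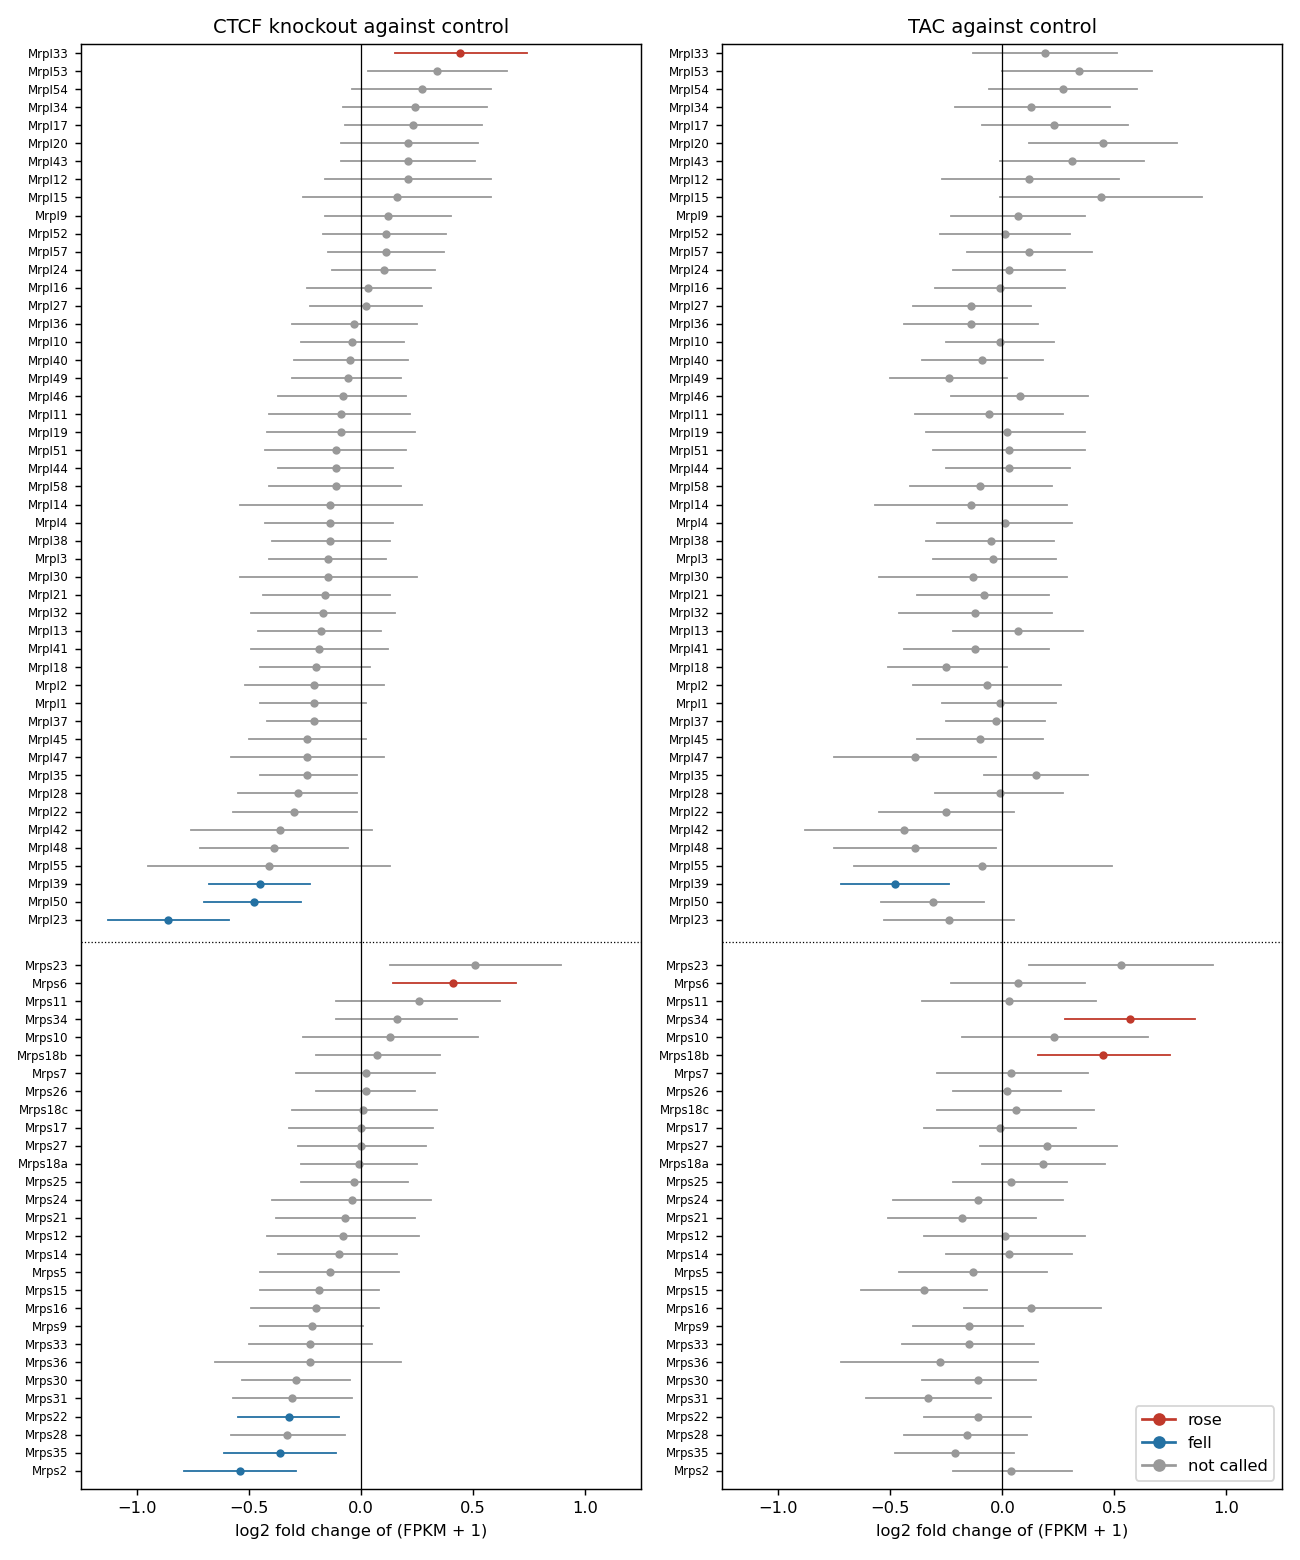
Log2 fold changes of (FPKM + 1) of all 78 genes in CTCF knockout (left) and TAC (right) against control, large subunit above the dotted line and small subunit below it, in the order of the knockout values. Points are estimates and bars 95% intervals of the limma fit, coloured by call; 8 genes are called on the left and 3 on the right.

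A fixed panel of 8 genes joined known disease genes of the mitochondrial ribosome with Mrpl12 and the Mrps18 family. Mrpl3 was at 53.4, 68.5 and 54.9 FPKM in control and 53.7, 48.4, 61.1 and 48.5 FPKM in the knockout, and Mrpl44 at 24.4, 30.1 and 28.6 FPKM and 27.9, 25, 27.8 and 21.7 FPKM. Mrps14 was at 22.9, 30.8 and 27.2 FPKM in control and 26.4, 21.8, 26.4 and 25 FPKM in the knockout. The groups of these 3 genes overlapped, and the 95% interval of the log2 fold change ran from -0.41 to 0.11 for Mrpl3, -0.37 to 0.14 for Mrpl44 and -0.37 to 0.16 for Mrps14. Mrpl12, which is also known to bind the mitochondrial RNA polymerase, averaged 58.6 ± 9.90 FPKM (SD, n = 3) in control and 67.8 ± 11.4 FPKM (SD, n = 4) in the knockout (interval -0.16 to 0.58). Mrps18a, Mrps18b and Mrps18c, 3 related proteins, had intervals from -0.27 to 0.25, -0.20 to 0.35 and -0.31 to 0.34. Of the panel, Mrps22 alone was called in the knockout.

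Pressure overload was compared with the same control libraries. After TAC, 3 of 78 members were called, or 3.85%, beside 15.5% of all genes tested. Mrps34 and Mrps18b rose and Mrpl39 fell, while 8.08% of all genes rose and 7.37% fell. The median log2 fold change was -0.03 in the large and 0.02 in the small subunit, and that of all genes -0.00. Members whose TAC libraries lay entirely below control numbered 9, and entirely above 4, beside 15.7% and 16.0% of all genes. At an unadjusted p under 0.05 (limma) stood 12 members, or 15.4%, beside 3408 of all 11358 genes. Both comparisons use the same 3 control libraries.

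Mrps34, a small subunit protein without a bacterial counterpart that is known to be mutated in Leigh syndrome, was at 13.0, 18.8 and 14.7 FPKM in control, 15.3, 18.3, 18.4 and 17.0 FPKM in the knockout and 21.5, 24.5 and 23.9 FPKM after TAC (chr17:24895116-24897502, plus strand). All TAC libraries were above all others. The log2 fold change against control was 0.57 (SE 0.13, 95% interval 0.28 to 0.86, adjusted p = 0.0137, limma), and it was called in all 24 alternatives. The gene lies within Mapk8ip3, on the other strand, and its main transcript shares 504 of 918 nt with it. It also overlaps Nme3 on its own strand (log2 fold change 0.07 after TAC, not called). Whether counting used strand is not given in the sources used here. Mapk8ip3 had a log2 fold change of 0.08 after TAC and was not called.

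Mrps18b (chr17:35910379-35916389, minus strand) was at 16.9, 20.5 and 22.3 FPKM in control, 22.2, 20.5, 21.7 and 19.1 FPKM in the knockout and 22.9, 29.5 and 30.4 FPKM after TAC. The lowest TAC library stood just above the highest control library. Its log2 fold change after TAC was 0.45 (SE 0.13, adjusted p = 0.0393, limma). This call was kept only without control 3, knockout 4 or TAC 1 among the fits that left out 1 library (adjusted p up to 0.126). Its main transcript overlaps the antisense gene model Gm16279 over 579 nt.

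Mrpl39 was the one member called in both comparisons with control, with a log2 fold change after TAC of -0.48 (SE 0.11, adjusted p = 0.0123, limma). Its main transcript was at 17.3 ± 0.775 FPKM (SD, n = 3) in control, 11.9 ± 1.07 FPKM (SD, n = 4) in the knockout and 11.9 ± 0.233 FPKM (SD, n = 3) after TAC. Mrpl50 had a log2 fold change of -0.31 after TAC and was not called (SE 0.11, adjusted p = 0.0729, limma). The other extremes after TAC were not called either: Mrpl20 (0.45), Mrpl15 (0.44), Mrpl53 (0.34), Mrpl47 (-0.39), Mrpl42 (-0.44), Mrps15 (-0.35), Mrps31 (-0.33) and Mrps36 (-0.28).

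**Figure D3:**
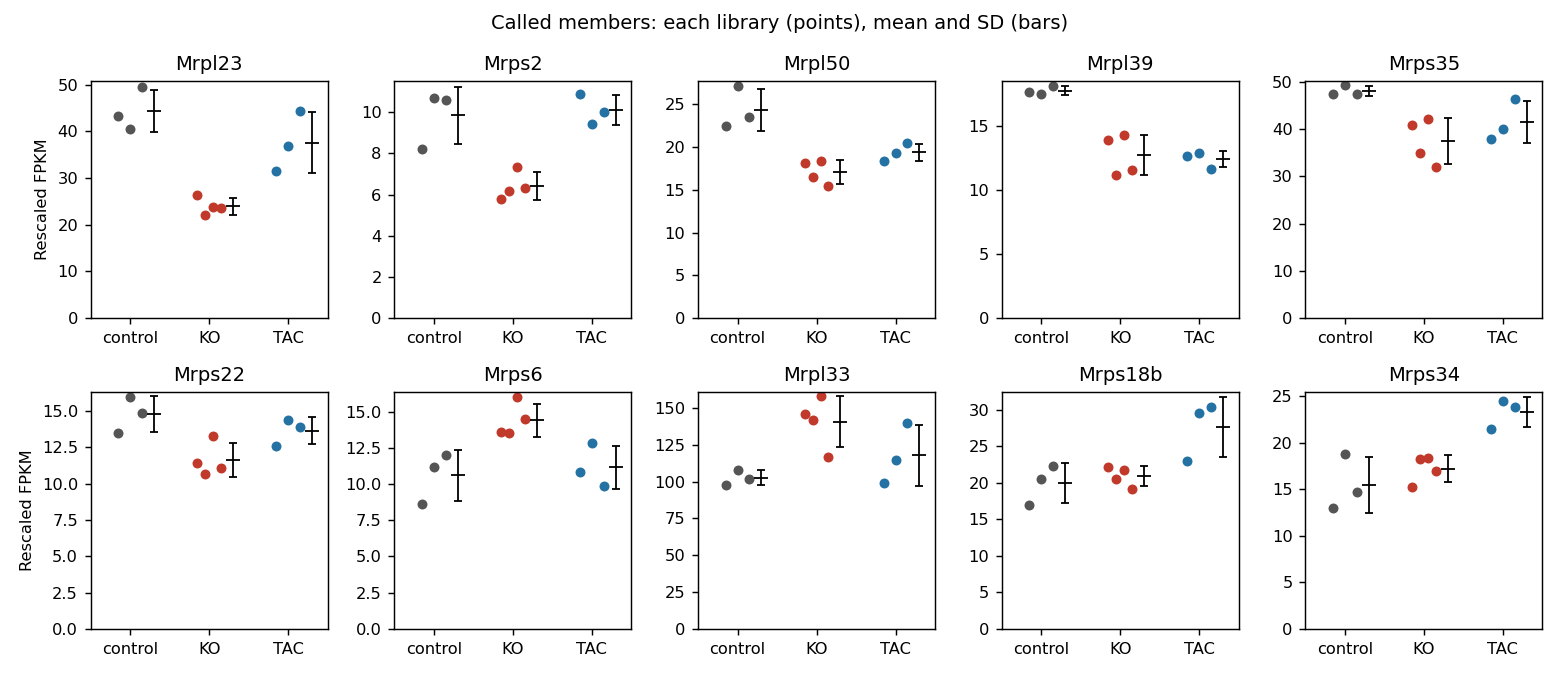
Rescaled FPKM of the 10 members called in either comparison with control, on axes that start at 0. Points are single libraries of control (grey), CTCF knockout (KO, red) and TAC (blue), and bars give mean and SD; the knockout libraries of Mrpl23 and Mrps2 lie below all other libraries, and the TAC libraries of Mrps34 above them.

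The knockout was then compared with TAC directly. Here 2 of 78 members were called, or 2.56%, beside 3.28% of all genes, of which 1.58% were higher and 1.70% lower in the knockout. Knockout libraries lay entirely below TAC for 9 members and entirely above for 1, beside 9.64% and 8.43% of all genes, and 8 members (10.3%) had an unadjusted p under 0.05 (limma), as did 18.0% of all genes. Mrpl23 was lower in the knockout than after TAC (log2 fold change -0.62, SE 0.12, adjusted p = 0.0231, limma), as was Mrps2 (-0.59, SE 0.11, adjusted p = 0.0206). The call of Mrpl23 was lost without knockout 2, knockout 3, TAC 2 or TAC 3 (adjusted p up to 0.0767), and that of Mrps2 without knockout 1 or any TAC library (up to 0.0757). Mrps34 (-0.42, adjusted p = 0.0961) and Mrps18b (-0.38, adjusted p = 0.126, limma), which rose after TAC, were not called between knockout and TAC.

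Members moved together from library to library within a group. Over the 10 libraries, the median correlation between 2 members of their deviations from group means was 0.66, and 98.3% of pairs were above 0. Among all 10327 tested protein-coding genes the median was -0.00, with 50.0% of pairs above 0. The large and the small subunit each had a median of 0.66. These points share libraries, scaling and depth, so the values are a description. In their levels over the 10 libraries, group differences included, Mrpl2 and Mrpl4 followed the median of the other members most closely (r of 0.98 each), and Mrps6 (-0.05), Mrpl17 (0.19) and Mrpl33 (0.23) least. The last of these and Mrps6 are the members that rose in the knockout, which itself enters this r.

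Per library, the members' median log2 deviation from the mean over all libraries was -0.15, 0.20 and 0.10 in control, 0.02, -0.11, 0.10 and -0.21 in the knockout and -0.09, -0.00 and 0.16 after TAC. Libraries of 1 group thus differed by up to 0.35 on the log2 scale, and the groups overlapped. Other protein-coding genes with transcripts under 1000 nt (553 genes) stood at -0.16, 0.08 and 0.06 in control, 0.11, 0.00, 0.14 and -0.09 in the knockout and -0.13, -0.08 and 0.09 after TAC. Genes with transcripts over 5000 nt (2195 genes) stood at 0.14, -0.07 and -0.06, then -0.11, 0.03, -0.10 and 0.08, then 0.13, -0.00 and -0.04. In control 1, knockout 4 and TAC 1, members and short transcripts were low and long transcripts high. The part of transcript length in the members' shared movement was not tested.

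**Figure D4:**
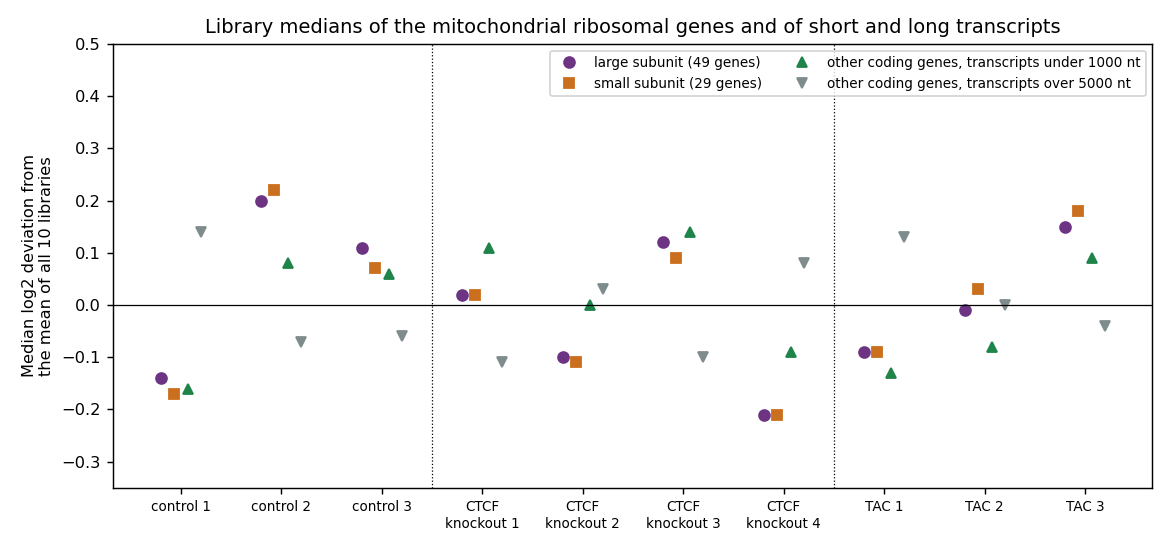
Median log2 deviation of each library from the mean of all 10 libraries, for large subunit genes, small subunit genes, and other protein-coding genes with short (under 1000 nt) or long (over 5000 nt) transcripts. Large and small subunit values stay close to each other in each library, between -0.21 and 0.22, and control 1, knockout 4 and TAC 1 lie low for members and short transcripts alike.

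Promoters of the members were read from RefSeq (GRCm38.p6), as the 250 bases before and 50 after the start, and 69 of 78 genes matched, with 75 promoters. Sites were searched on both strands, and a site of one motif may overlap that of another. The letters CCGGAAG, bound by ETS family factors such as GABP, were in 34.7% of the member promoters and in 8.86% of all 32851 mouse promoters of this length. The palindromic core of the NRF1 motif was in 18.7% and 6.23%, and AAGATGGC, bound by YY1, in 16% and 2.75%. NRF1 and GABP are known activators of nuclear genes for mitochondrial proteins. The core of the CTCF motif was in 13.3% of member and 8.61% of all promoters. It was in 10 of 48 large subunit and 0 of 27 small subunit promoters, a difference that was not tested. TATAAA was in 6.67% and 13.6%. The promoters compared with were not limited to genes tested here, and the part of expression in these shares was not tested. A match is a run of letters and no evidence that a factor binds there.

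The promoters of 5 called members are shown, 200 bases before to 30 after the start, with all matches of the searched motifs in capitals: Mrpl23 and Mrps2, which separated knockout from TAC, Mrpl39, called in both comparisons, and Mrps22 and Mrpl33, one that fell and one that rose with the same ETS letters beside the start.
Mrpl23, chr7:142532832-142533061, plus strand: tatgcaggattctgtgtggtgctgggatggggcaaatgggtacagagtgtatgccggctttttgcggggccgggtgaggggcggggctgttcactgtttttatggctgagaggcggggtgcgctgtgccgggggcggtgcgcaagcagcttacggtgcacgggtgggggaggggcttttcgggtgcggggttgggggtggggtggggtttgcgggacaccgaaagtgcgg
Mrps2, chr2:28467866-28468095, plus strand: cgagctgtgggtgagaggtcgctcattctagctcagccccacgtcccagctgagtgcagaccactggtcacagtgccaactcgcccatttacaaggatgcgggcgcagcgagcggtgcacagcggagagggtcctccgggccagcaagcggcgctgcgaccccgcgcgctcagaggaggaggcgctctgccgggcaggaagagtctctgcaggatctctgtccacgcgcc
Mrpl39, chr16:84735215-84735444, minus strand: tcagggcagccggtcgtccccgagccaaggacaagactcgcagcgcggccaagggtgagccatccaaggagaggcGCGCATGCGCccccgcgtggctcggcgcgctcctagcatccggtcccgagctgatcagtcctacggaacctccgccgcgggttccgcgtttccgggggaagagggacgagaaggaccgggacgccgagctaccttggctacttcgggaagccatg
Mrps22, chr9:98601650-98601879, minus strand: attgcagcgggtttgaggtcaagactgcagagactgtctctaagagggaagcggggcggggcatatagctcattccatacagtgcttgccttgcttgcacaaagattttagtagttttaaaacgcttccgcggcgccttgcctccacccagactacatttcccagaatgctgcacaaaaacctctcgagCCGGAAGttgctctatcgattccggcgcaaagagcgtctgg
Mrpl33, chr5:31613751-31613980, plus strand: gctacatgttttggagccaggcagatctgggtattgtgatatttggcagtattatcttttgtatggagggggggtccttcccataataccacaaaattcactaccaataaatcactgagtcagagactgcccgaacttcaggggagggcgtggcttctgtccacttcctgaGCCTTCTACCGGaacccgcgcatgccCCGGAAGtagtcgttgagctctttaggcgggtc
The Mrpl39 promoter holds the NRF1 letters, starting 125 bases before the start. In Mrps22 the ETS letters begin 11 bases and in Mrpl33 3 bases before the start. Mrpl33 also holds the CTCF core letters, from 29 bases before the start on the minus strand. The promoters of Mrpl23 and Mrps2 held none of the 5 motifs in this window.

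Mitochondrial ribosomal genes often start beside another protein-coding gene on the other strand. Such a start within 1 kb was found for 29 of 78 members (37.2%) and for 16.3% of the tested protein-coding genes. Mrpl46 and Mrps11, of the 2 subunits, start 412 nt apart, and neither was called. Of the partners of these 29 members, 4 were called in a comparison with control, and those with a mean under 1 FPKM were not tested. Among all genes tested, 20.8% were called in the knockout and 15.5% after TAC. Zfp189, a zinc finger gene 83 nt from Mrpl50, fell in the knockout (log2 fold change -0.43, adjusted p = 0.0200, limma), as did Mrpl50, and also after TAC (-0.45, adjusted p = 0.0262). Twnk, the mitochondrial DNA helicase gene 116 nt from Mrpl43, fell in the knockout (-0.39, adjusted p = 0.00757) and after TAC (-0.29, adjusted p = 0.0472), while Mrpl43 was at 0.21 and 0.31 and was not called. Ppp1r10, 45 nt from Mrps18b, fell after TAC (-0.37, adjusted p = 0.0348, limma), where Mrps18b rose. Ncapd2, a condensin gene 100 nt from Mrpl51, rose in the knockout (0.62, adjusted p = 0.00499, limma), and Mrpl51 was not called (-0.11). Where both were called in the same comparison with control, member and partner moved the same way in 1 pair and opposite ways in 1 pair. With 1 library left out, the TAC call of Twnk was lost in 10 of 10 fits and that of Ppp1r10 kept in 3 of 10, while the knockout calls of Twnk and Ncapd2 were kept in 10 of 10. Zfp189 kept its call in 8 of 10 fits in the knockout and in 6 of 10 after TAC.

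Other genes of mitochondrial translation were taken from fixed lists. In the knockout, 1 of these genes rose and 14 fell of 104 tested, beside 10.6% and 10.2% of all genes. The count of 15 fell to 5 without knockout 1, to 7 without control 2, control 3 or knockout 3 and to 9 without knockout 2 or knockout 4. The share of all genes called was lower in each of these fits too. None of the 5 ribosomal proteins with other symbols was called (Dap3, Ptcd3, Aurkaip1, Chchd1 and Gadd45gip1). Dap3 was at 54.3, 60.7 and 55.5 FPKM in control and 50.9, 46.1, 50.8 and 43.9 FPKM in the knockout.

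Of 14 translation factors, Gfm2, which recycles ribosomes after termination, fell (log2 fold change -0.33, adjusted p = 0.0331, limma). It was at 17.3, 18.0 and 19.5 FPKM in control, 14.7, 14.5, 13.9 and 14.2 FPKM in the knockout and 18.5, 22.8 and 18.6 FPKM after TAC. Of 24 genes for ribosome assembly and modification of its RNA, Mtg1 (-0.36) and Mtg2 (-0.35), GTPases of large subunit assembly, and Tfb1m (-0.36), a methyltransferase of the small subunit RNA, fell. Trub2, a pseudouridine synthase, rose (0.42). Their adjusted p ran from 0.0288 to 0.0445 (limma), and with 1 library left out each of these 4 calls was kept in 5 of 10 fits or fewer, as was that of Gfm2 (4 of 10).

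Of 22 aminoacyl tRNA synthetases, Aars2 (-0.51, adjusted p = 0.00451, limma) and Yars2 (-0.36, adjusted p = 0.0348) fell, calls kept in 10 and 5 of 10 fits with 1 library left out. Aars2, whose defects are known to cause infantile cardiomyopathy, was at 6.64, 7.51 and 6.44 FPKM in control, 4.85, 3.90, 4.68 and 4.66 FPKM in the knockout and 7.53, 6.46 and 7.17 FPKM after TAC. Of 18 tested genes for mitochondrial transcription and RNA stability, 5 fell and none rose. They were Fastkd1 (-0.40, adjusted p = 0.00685, limma), Pnpt1 (-0.49, adjusted p = 0.0114), Lrpprc (-0.38, adjusted p = 0.025), Mterf2 (-0.49, adjusted p = 0.0282) and Fastkd5 (-0.32, adjusted p = 0.0360). With 1 library left out, Fastkd1 kept its call in 10 of 10 fits, Pnpt1 in 9, Lrpprc in 6 and Mterf2 in 4. Lrpprc, which stabilizes mitochondrial messages, was at 58.3, 74.1 and 67.3 FPKM in control, 45.0, 53.2, 50.9 and 54.0 FPKM in the knockout and 60.6, 63.4 and 62.9 FPKM after TAC.

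Of 13 regulators of mitochondrial biogenesis, Ppara, a nuclear receptor for fatty acids, fell (-0.62, adjusted p = 0.0244, limma), a call kept in 6 of 10 fits with 1 library left out. Ppargc1a, the coactivator of this program, was at 38.6, 61.8 and 42.8 FPKM in control, 24.7, 24.5, 21.4 and 24.4 FPKM in the knockout and 24.9, 85.2 and 25.3 FPKM after TAC. The knockout libraries lay below control, and 1 TAC library stood far above the other two. Ppargc1a was not called (-0.95, SE 0.35, adjusted p = 0.0739, limma). Nrf1 averaged 3.68 ± 0.571 FPKM (SD, n = 3) in control and 4.30 ± 0.525 FPKM (SD, n = 4) in the knockout, and Gabpa 13.6 ± 1.67 and 11.2 ± 1.39 FPKM; neither was called.

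The messages that the mitochondrial ribosome reads were very abundant. Of 8 tested, mt-Nd3 (-1.0, adjusted p = 0.00107, limma) and mt-Nd2 (-0.71, adjusted p = 0.022) fell in the knockout, calls kept in 10 and 7 of 10 such fits. mt-Nd3, a subunit of complex I, was at 9345, 10655 and 11485 FPKM in control, 4671, 5621, 4926 and 5851 FPKM in the knockout and 6467, 7196 and 5804 FPKM after TAC. Both RNAs of the mitochondrial ribosome and mt-Co1 were listed at 0 in all libraries, which can be a failed estimate, and no level is read from them.

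After TAC, 2 genes of these lists rose and 4 fell of 104 tested, beside 8.08% and 7.37% of all genes. Mpv17l2, a ribosome assembly protein, rose (0.48, adjusted p = 0.0103, limma), as did Gars (0.36, adjusted p = 0.0353), the glycyl tRNA synthetase shared by cytosol and mitochondria. Fastkd1 (-0.41, adjusted p = 0.0110), Mettl15 (-0.49, adjusted p = 0.0205), Cars2 (-0.44, adjusted p = 0.021) and mt-Nd3 (-0.69, adjusted p = 0.0145, limma) fell. With 1 library left out, Mpv17l2 and Fastkd1 kept their call in 10 of 10 fits, Mettl15 and mt-Nd3 in 8, Cars2 in 6 and Gars in 3. The count of 6 was 3 without control 3 or TAC 1. Between knockout and TAC, Aars2 (-0.54, adjusted p = 0.017, limma), Gfm2 (-0.44, adjusted p = 0.0318), C1qbp (-0.85, adjusted p = 0.0419) and Mtg1 (-0.44, adjusted p = 0.0425) were lower in the knockout. These are 4 of 104 genes, while 1.70% of all genes were lower and 1.58% higher. No gene of these lists was higher in the knockout. With 1 library left out, Aars2 kept this call in 8 of 10 fits, Gfm2 in 3 of 10, and C1qbp and Mtg1 in 2 of 10 each. C1qbp, a matrix protein needed for mitochondrial translation, was at 26.5, 22.4 and 22.0 FPKM in control, 13.3, 20.3, 14.5 and 19.2 FPKM in the knockout and 43.8, 25 and 26.4 FPKM after TAC. The count of 4 was 4 without control 1 and fell to between 0 and 3 without any other single library.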

How the data were processed

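RNA-seq of 10 libraries was analysed from the deposited transcript files, in which the authors give an FPKM for each transcript. Cufflinks 2.2.1, Cuffdiff, Bowtie2, TopHat2 2.1.0 and the build mm10 are listed in the submitters' processing notes. The labels give polyA RNA as molecule, while the protocol describes removal of ribosomal RNA. FPKM was summed by gene ID. After 22 gene IDs that were not quantified in some libraries and those with transcripts under 300 nt were left out, 38095 remained. Rescaling of libraries used median ratios to the geometric mean over genes of a mean of at least 1 FPKM (factors 0.912 to 1.096), and printed FPKM is rescaled. The 11358 gene IDs with a mean of at least 1 were fitted as log2(FPKM + 1) with limma 3.58.1 in R 4.3.3, with a variance trend, over all 10 libraries. This scale understates changes of low genes. P values are two-sided, adjusted by Benjamini-Hochberg, and "rose" and "fell" mean an adjusted p under 0.05. The fit was also run on simulated data with independent noise for each gene, which does not model members that move together.

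The members, lists and tests were chosen with earlier results of these data known. Named genes were Ctcf, a fixed panel (Mrpl3, Mrpl12, Mrpl44, Mrps14, Mrps22, Mrps18a, Mrps18b, Mrps18c), called members, the 3 highest and 3 lowest levels and fold changes of each subunit, up to 4 called genes of each list by adjusted p, members needed for small counts, and called partners. Mrpl23-ps1 and the genes that share sequence with a member or neighbour Mrpl23 were named after their values were seen. So were Mrpl2, Mrpl4, Mrpl17, Dap3, Fastkd5, Ppargc1a, Nrf1, Gabpa, Jam2 and Atp5j. The alternatives were another pseudocount, filters, scalings, gene values and gene sets, the compared groups alone, no variance trend, sex, the replicate number as a block and each library left out.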

Additional observations from a re-analysis of the deposited data

Results flagged for a closer look

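Mrpl23 and Mrps2 differed between knockout and TAC in the test of that difference itself, with log2 fold changes of -0.62 (adjusted p = 0.0231, limma) and -0.59 (adjusted p = 0.0206, limma). Mrpl23 was below both other groups in 4 of 4 knockout libraries, as was Mrps2. In the group of 4 knockout libraries, 1 library stood apart for 2 of 78 members. Mrpl54 was at 53.5 FPKM in knockout 4, with the nearest other library at 70.7 FPKM, and Mrps18c at 19.7 FPKM in knockout 4, with the nearest other at 26.8 FPKM. Chance alone flags about 1 in 20 such groups.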

How the results depend on the processing

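Of 73 single gene values, the 44 called ones kept their sign under every alternative run (24, or 23 for 7 gene values), and 10 of the 29 uncalled ones, all within 0.12 of 0, changed sign under at least 1. Of 1745 values under alternatives, 283 lost their call and 28 gained one. In the knockout against control, the 8 called members became 4 with no filter on low means, 5 without rescaling (3 higher, 2 lower), 4 with sex as a term, 4 with scaling factors from all genes above 0 and 27 with the level of short transcripts as a term. After TAC the 3 became 1 without rescaling, 7 with quantile normalization, 5 with factors from genes of at least 5 FPKM and 12 with the short transcript term. Between knockout and TAC the 2 became 0 without a filter, 0 without rescaling, 1 with sex and 11 with the short transcript term. In the same order of settings, 7.89%, 20%, 19.5%, 19.6% and 27.1% of all genes were called in the knockout against control. After TAC these shares were 13.5%, 17.2%, 15.8% and 23%, and between knockout and TAC 0.74%, 2.92%, 2.05% and 6.6%. Without rescaling, the median of all genes moved to 0.10 in the knockout, and the members' median to 0.02. The short transcript term and both other sets of scaling factors were chosen after seeing the data. For the 15 genes of the other lists called in the knockout, the count was 6 without a filter, 6 without rescaling and 34 with the short transcript term; after TAC the 6 became 1 with only the groups compared. Between knockout and TAC the 4 became 2 without a filter, 1 without rescaling, 2 with only the groups compared, 2 with the highest transcript of each gene, 2 with factors from genes of at least 5 FPKM and 14 with the short transcript term. With only the groups compared, 10% of all genes were called after TAC and 3.5% between knockout and TAC. Between knockout and TAC, this share was 3.26% with the highest transcript and 3.47% with factors from genes of at least 5 FPKM. Without a filter, 26349 genes were tested. There mt-Nd3 and mt-Nd2 lost their calls in the knockout against control, and mt-Nd3 its call after TAC. The cause of these shifts in the counts was not tested.

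With 1 library left out, the called members numbered 4 to 8 in the knockout, 2 to 4 after TAC and 0 to 3 between knockout and TAC. The list genes numbered 5 to 15, 3 to 7 and 0 to 4. The share of all genes called ran from 14.9% to 20.4%, 10.9% to 14.7% and 1.17% to 3.91%. The median log2 fold change then ran from -0.21 to -0.04 for the large and -0.19 to 0.01 for the small subunit in the knockout, from -0.11 to 0.04 and -0.10 to 0.10 after TAC, and from -0.10 to 0.04 and -0.12 to -0.00 between them. A check of the replicate numbers showed no pairing of libraries, but with so few libraries it cannot exclude one. In it, 9 same-numbered pairs correlated at -0.36 to 0.33, and a library correlated best with its own number in 5 of 18 cases. With the replicate block, 6 members were called in the knockout, 5 after TAC and 0 between knockout and TAC. The shares of all genes were 16%, 13.6% and 1.76%. Of the list genes, 8 and 0 were called in the knockout against control and against TAC. Without read counts, the precision of low levels is unknown.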
